A study of Mus musculus with 6 samples.

Results

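Followed here are 10 transcription factors that pattern the mesenchyme of the skull vault and its sutures, measured in sorted cells of the mouse calvarial suture. They are the bHLH factors Twist1 and Twist2, the homeobox factors Msx1, Msx2, Dlx5, Alx4, Prrx1, Six2 and En1, and the zinc finger factor Zic1. The genes were taken by name. Each had exactly 1 array feature that carries its symbol alone, so that all 10 of 10 were measured, among 19938 genes tested. RNA came from 3 samples of Axin2+/GFP+ cells and 3 samples of Axin2-/GFP- cells, each pooled from 6 to 8 mice aged 28 days after birth. All mice, on a mixed background of C57BL/6J, CD-1 and B6CBAF2, carried Axin2rtTA and TRE-H2BGFP and received doxycycline from day 25 on, also those that gave the GFP- cells. GFP, fused to a histone, is made where Axin2 drives the doxycycline-dependent activator, so the sort reads the activity of the reporter and not of a patterning factor. The methods name sagittal suture tissue, GFP intensity as the only gate and a high GFP level for the positive cells, which the paper calls Axin2+/GFPhi.

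A suture is a strip of mesenchyme that stays unossified between the bone plates while bone is added at its edges. The factors studied here set the identity of the mesenchyme and the balance between growth and bone formation in it, and several are known from human skull disorders. Loss of a TWIST1 copy and gain of MSX2 activity cause craniosynostosis, the early fusion of sutures, whereas loss of MSX2 or ALX4 function leaves openings in the parietal bones. Twist proteins bind DNA as dimers, with each other or with the widely expressed E proteins Tcf3, Tcf4 and Tcf12, and Id proteins hold E proteins away from DNA.

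Dlx5, Six2 and Alx4 were higher in Axin2+/GFP+ cells, by 1.99-fold, 1.92-fold and 1.78-fold. Twist1, Prrx1 and En1 lay higher in every Axin2+/GFP+ sample than in any Axin2-/GFP- sample but did not pass the adjusted threshold, and Twist2, Msx1, Msx2 and Zic1 overlapped between the populations. In limma, with p-values adjusted over all genes and a threshold of 0.05, 3 of the 10 genes were higher and 0 were lower, whereas 4.64% of all genes tested were higher and 11.4% lower. Before adjustment, at the same threshold, limma put 6 higher and 0 lower, against 16.3% and 17.6% of all genes. Before adjustment, the methods' two-sided t-test called 3 higher (Dlx5, Alx4 and Six2; 14.8% of all genes) and 0 lower (2747 of all 19938 genes). After adjustment it called 0 higher (1.06% of all genes) and 0 lower (518 of all 19938 genes). For 6 genes the populations did not overlap with the Axin2+/GFP+ samples higher, which held for 23.1% of all genes, and for 0 with them lower (17.8% of all genes). The log2 change between populations, Axin2+/GFP+ minus Axin2-/GFP-, was positive for 9 of the 10 genes and for 61.7% of all genes, with a median of 0.64 over the 10 and 0.14 over all. With samples of 3 and 3, an exact permutation test of a single gene cannot give a two-sided p below 0.1, the value it gave for each of the 6 genes without overlap.

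**Figure D1:**
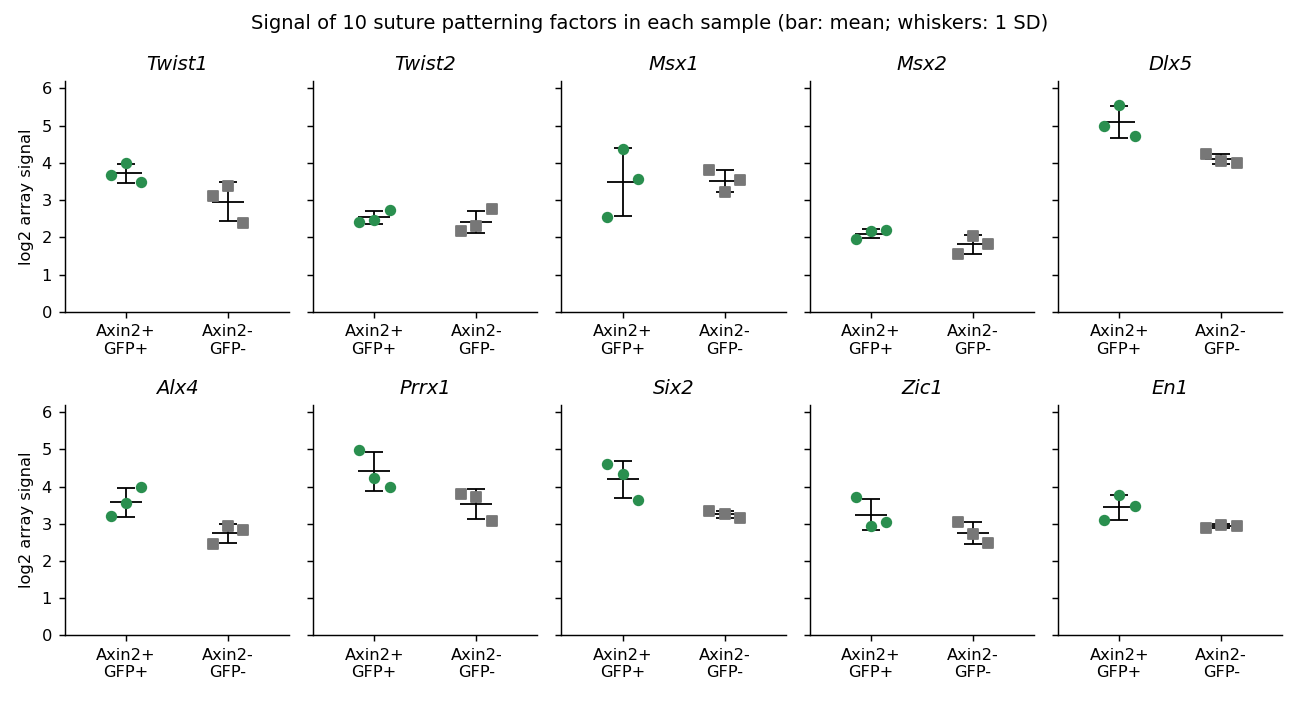
The array signal on the log2 scale (vertical axis) is plotted for each of the 10 factors, with 1 point per sample, green circles for Axin2+/GFP+ and grey squares for Axin2-/GFP- cells, the mean as a short bar and 1 SD as whiskers. Dlx5, Six2, Alx4, Twist1, Prrx1 and En1 show no overlap, and Msx1 spreads from 2.54 to 4.37 among the Axin2+/GFP+ samples.

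The deposited arrays do not share one distribution, and this touches genes of low signal. Their upper quartile was 3.72 to 3.76 in the Axin2+/GFP+ and 3.97 to 4.0 in the Axin2-/GFP- samples. A set of 1190 olfactory and vomeronasal receptor genes, which serve in sensory neurons, had a median log2 change of 0.30, and 31.6% of them lay higher without overlap. The factors are therefore set beside these receptor genes, as a gauge of the low end of the signal. For 8 of the 10, at most 5% of the receptor genes were as bright or brighter in both populations. Twist2 and Msx2 were the others. Among genes with a mean log2 signal of 3 to 4, where 6 of the 10 factors lie, the median log2 change was -0.04, and at 4 to 5, the range of Dlx5, it was -0.51. Below these it was 0.27 at a mean signal under 2, where Msx2 lies, and 0.24 at 2 to 3, where Twist2 and Zic1 lie. The receptor genes and the genes of like signal thus lie on opposite sides of 0 for 7 factors and on the same side for 3.

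**Figure D2:**
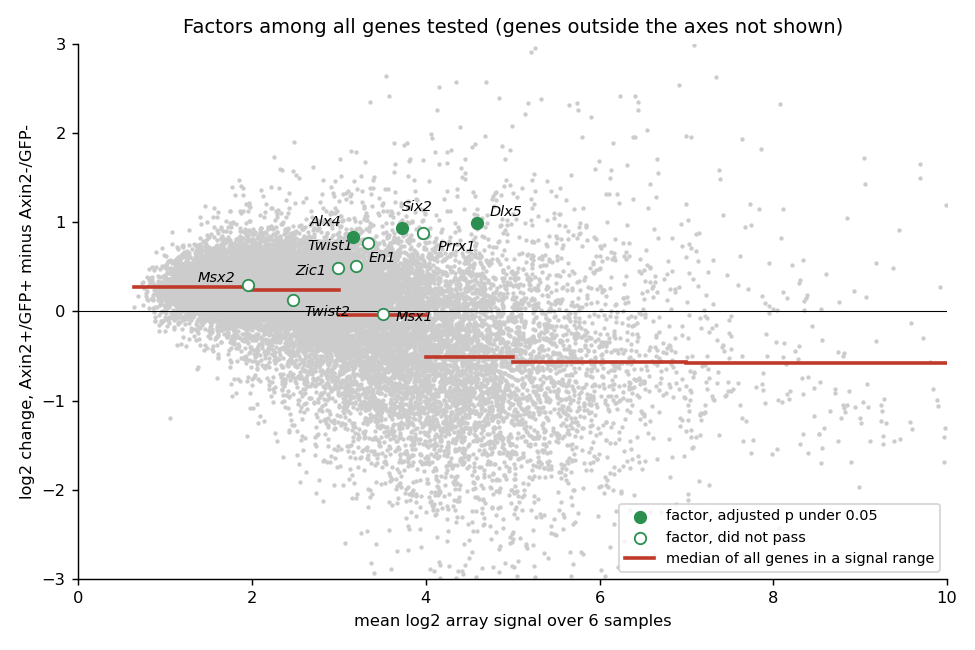
Plotted on the vertical axis is the log2 change between populations, against the mean log2 signal over the 6 samples (horizontal axis), with a grey point for each gene, green points for the 10 factors (filled where the adjusted p was under 0.05) and a red line at the median of all genes in each signal range. Dlx5, Six2 and Prrx1 lie far above the red line of their range, and Msx1 and Msx2 lie next to theirs.

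Twist1, the bHLH factor that keeps suture mesenchyme from early ossification, had log2 signals of 3.66, 4.01 and 3.50 in the Axin2+/GFP+ samples and of 3.11, 3.39 and 2.37 in the Axin2-/GFP- samples. Every Axin2+/GFP+ sample was higher, but the nearest samples of either population stood at 3.50 and 3.39. The log2 change was 0.77 (limma adjusted p = 0.0915, standard error 0.28), with a 95% interval of 0.14 to 1.39. Without Axin2-/GFP- replicate 3, the lowest sample, it was 0.47 (limma adjusted p = 0.243), and with receptor centring 0.45 (limma adjusted p = 0.316). The share of receptor genes as bright as Twist1 or brighter was 0.924% in Axin2+/GFP+ cells and 2.61% in Axin2-/GFP- cells, so its signal lay above nearly all of them.

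Twist2, its close relative in the dermis and in bone-forming cells, read 2.41, 2.47 and 2.73 in Axin2+/GFP+ and 2.18, 2.30 and 2.75 in Axin2-/GFP- samples on the log2 scale. The populations overlapped, the highest of all 6 signals being an Axin2-/GFP- sample. Receptor genes as bright as Twist2 or brighter made up 14.2% in Axin2+/GFP+ and 9.24% in Axin2-/GFP- cells, and 77.6% rose at least as much. The log2 change of Twist2, 0.13, had a 95% interval of -0.34 to 0.59. It turned negative under quantile and loess scaling and when the receptor genes set the centre. How far the features of these related genes share probe sequence was not tested.

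Of the partners of the Twist proteins, all 3 E proteins were lower in Axin2+/GFP+ cells. Tcf12, itself a craniosynostosis gene, had log2 signals of 3.37, 2.98 and 3.18 in Axin2+/GFP+ against 5.23, 5.49 and 5.03 in Axin2-/GFP- samples, which is -2.07 on the log2 scale (limma adjusted p = 0.000447, standard error 0.19). The log2 changes of Tcf3 and Tcf4 were -2.27 and -2.39, with adjusted p = 0.00728 and 0.000345 from limma. None of the 3 overlapped between the populations, but Tcf3 did not pass in the methods' t-test after adjustment (adjusted p = 0.102). Of the 4 Id inhibitors only Id1 passed, with log2 signals of 4.64, 4.13 and 3.82 against 3.07, 3.44 and 3.08 and a rise of 1.0 on the log2 scale (limma adjusted p = 0.0244). Id2, Id3 and Id4 overlapped, at log2 changes of -0.35, -0.29 and 0.35. The call of Id1 ended in the methods' t-test (adjusted p = 0.116), under receptor centring (0.68) and without Axin2-/GFP- replicate 1 (0.94) or 3 (0.94). E proteins also serve B cell development, and all 12 measured markers of that lineage were lower in Axin2+/GFP+ cells. Their summed linear signal ran from 88.6 to 103 in Axin2+/GFP+ and from 1603 to 2132 in Axin2-/GFP- samples, and their part in the lower E protein signal was not tested.

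Msx1 and Msx2, homeobox repressors induced by BMP signalling in cranial mesenchyme, did not pass. Msx1 had log2 signals of 2.54, 4.37 and 3.57 in Axin2+/GFP+ and 3.80, 3.22 and 3.54 in Axin2-/GFP- samples. Both the lowest and the highest signal belonged to Axin2+/GFP+ cells, and the 95% interval of its log2 change, -0.95 to 0.89 around -0.03, was the widest of the 10. Without Axin2+/GFP+ replicate 1 the log2 change was 0.45 (limma adjusted p = 0.304). Msx2 had log2 signals of 1.96, 2.16 and 2.18 against 1.55, 2.05 and 1.83. The share of receptor genes as bright as Msx2 or brighter was 31.3% in Axin2+/GFP+ and 28% in Axin2-/GFP- cells. The difference between populations, 0.29 on the log2 scale (95% interval -0.14 to 0.72), lay at that of the receptor genes and was -0.03 under receptor centring.

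Dlx5, a homeobox factor of osteoblast formation, gave the largest change of the 10 and the smallest p. Its log2 signals were 5.0, 5.56 and 4.71 in Axin2+/GFP+ and 4.25, 4.04 and 4.0 in Axin2-/GFP- samples, so that the populations stood clearly apart. It rose by 0.99 on the log2 scale (limma adjusted p = 0.0237, standard error 0.23), with a 95% interval of 0.46 to 1.52. A change of this size or more was seen in 1.85% of the receptor genes, and 0.0840% and 0.168% were at least as bright in the respective cells. Its call ended in the methods' t-test (adjusted p = 0.114) and with receptor centring (0.67, limma adjusted p = 0.0768). It also ended when Axin2-/GFP- replicates were left out, without replicate 1 (1.07), 2 (0.96) or 3 (0.94). Dlx6, which lies next to Dlx5 in the genome and shares its enhancers, had a log2 change of 0.35 (limma adjusted p = 0.262) and overlapped between the populations.

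Alx4 and Prrx1 are paired-type homeobox factors of the skull vault and of limb and head mesenchyme. Alx4 had log2 signals of 3.21, 3.55 and 3.98 in Axin2+/GFP+ and 2.45, 2.95 and 2.83 in Axin2-/GFP- samples. There was no overlap, and the log2 change of 0.84 (limma adjusted p = 0.0464, standard error 0.24; 95% interval 0.29 to 1.38) passed by a narrow margin. Alx4 no longer passed in the methods' t-test (adjusted p = 0.150). The same held when the arrays were centred on their median (0.72) or on the receptor genes (0.52) or scaled by quantiles (0.88) or loess (0.80). Nor did it pass in 5 of the 6 fits without 1 sample. There it was 0.63 without Axin2+/GFP+ replicate 3 and 0.85 without replicate 2, and 0.69, 0.94 and 0.88 without Axin2-/GFP- replicates 1, 2 and 3. Prrx1, a marker of suture progenitor cells in other work, had log2 signals of 4.99, 4.24 and 4.0 against 3.79, 3.73 and 3.07. All Axin2+/GFP+ samples were again higher, with a log2 change of 0.88 (limma adjusted p = 0.0780, standard error 0.30; 95% interval 0.20 to 1.55). It was 1.12 under loess scaling and 0.56 under receptor centring, and passed in neither.

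Six2, a homeobox factor that keeps progenitors undifferentiated in the kidney and is expressed in head mesenchyme, had log2 signals of 4.62, 4.33 and 3.64 in Axin2+/GFP+ and 3.34, 3.27 and 3.15 in Axin2-/GFP- samples. The Axin2-/GFP- samples lay close together and below all others. The log2 change was 0.94 (limma adjusted p = 0.0386, standard error 0.25), with a 95% interval of 0.36 to 1.51. Six2 no longer passed in the methods' t-test (adjusted p = 0.144) or under median (0.82) and receptor centring (0.62). Nor did it pass without Axin2+/GFP+ replicate 1 (0.73) or 2 (0.87) and without Axin2-/GFP- replicate 1 (0.98), 2 (0.95) or 3 (0.89).

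En1, an engrailed homeobox factor of the calvarial mesenchyme, had log2 signals of 3.10, 3.76 and 3.47 in Axin2+/GFP+ and 2.89, 2.98 and 2.94 in Axin2-/GFP- samples. The populations did not overlap, although the lowest Axin2+/GFP+ sample stood near the others. The difference of 0.51 on the log2 scale (limma adjusted p = 0.118, standard error 0.20) did not pass, but passed without Axin2+/GFP+ replicate 1 (0.68, limma adjusted p = 0.0451). A change of this size or more was seen in 21.6% of the receptor genes. Zic1, whose gain of function is linked to fusion of the coronal suture, had log2 signals of 3.71, 2.95 and 3.04 against 3.05, 2.72 and 2.47. A single Axin2-/GFP- sample reached into the range of the Axin2+/GFP+ samples, and the log2 change of 0.49 had a 95% interval of -0.08 to 1.06 (limma adjusted p = 0.200). Without Axin2+/GFP+ replicate 1 it was 0.25, and 23.1% of the receptor genes changed at least as much as Zic1.

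**Figure D3:**
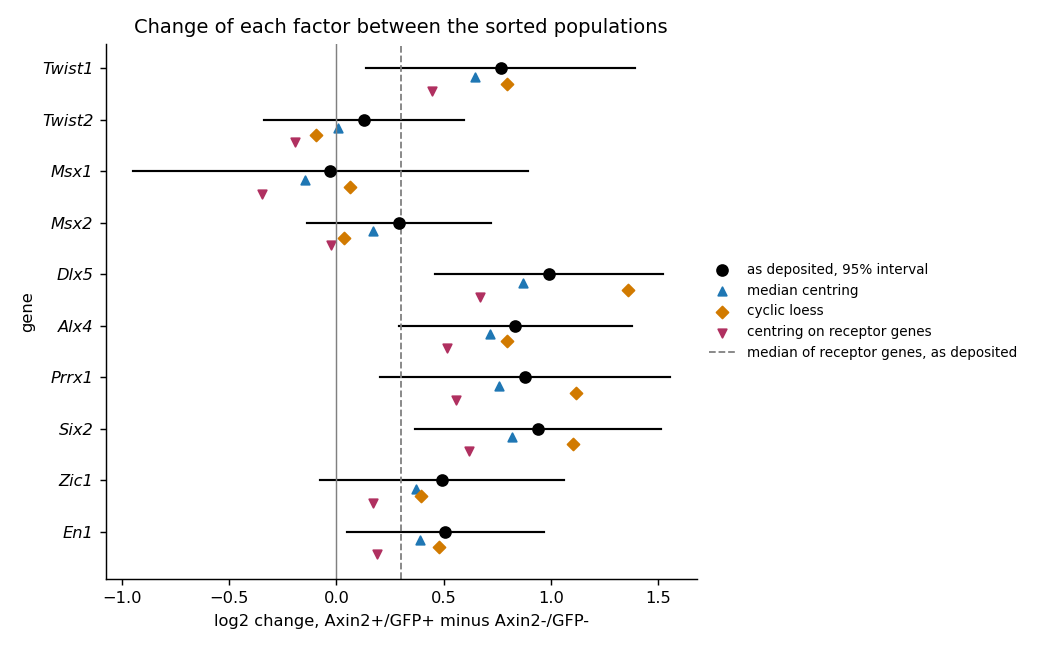
The log2 change of each factor (horizontal axis; Axin2+/GFP+ minus Axin2-/GFP-) is plotted as a black point with its 95% interval from limma, with the values under median centring, loess scaling and receptor centring drawn below it. A dashed line marks the receptor genes' median of 0.30. The intervals of 6 factors lie wholly above 0, and those of Dlx5 and Six2 also lie wholly above the dashed line.

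The 10 changes were read against different scalings, since the centre of the arrays is not known. The median log2 change of all genes was 0.14 as deposited, 0.02 with median centring, 0.01 with loess and -0.18 with receptor centring. The median of the 10 factors was 0.64, 0.52, 0.64 and 0.32 in the same order. Positive changes numbered 9, 9, 9 and 7, with Twist2 negative and Msx1 positive under loess and Twist2, Msx1 and Msx2 negative under receptor centring. Called higher were 3, 1, 2 and 0 of them, beside 4.64%, 2.21%, 3.94% and 1.05% of all genes.

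Signs of the cell mix moved with the sort. Of 14 neutrophil markers 13 were higher, with a summed linear signal of 20354 to 22641 in Axin2+/GFP+ and 2861 to 9077 in Axin2-/GFP- samples. Of 13 measured stromal genes 5 were higher and 1 was lower, with Col1a1, the main collagen chain of bone, at log2 signals of 10.34, 10.83 and 10.37 in Axin2+/GFP+ and 9.0, 8.44 and 9.14 in Axin2-/GFP- samples. Pdgfra, a receptor that marks mesenchyme, averaged 2.87 and 2.69 and overlapped between them. Axin2 itself had a log2 change of 0.55 (limma adjusted p = 0.0802, unadjusted p = 0.0177) and did not overlap between the populations. The paper reports Axin2 as significantly higher on the arrays and by qPCR, by Student's t-tests for which it names no adjustment. The median log2 change of the stromal genes was 0.56, and Dlx5, Six2, Prrx1, Alx4 and Twist1 exceeded it by 0.43, 0.38, 0.31, 0.27 and 0.20, whereas En1, Zic1, Msx2, Twist2 and Msx1 fell below it. That median is itself unsteady, at 1.0 under quantile and 1.09 under loess scaling, 0.88 without Axin2-/GFP- replicate 1 and 0.38 without replicate 2. The stromal changes were widely spread, with quartiles of 0.18 and 1.07 and a range from -0.98 (Fn1) to 1.95 (Col3a1). As deposited, the 5 stromal genes called higher each changed more than any factor, Col5a1 the least at 1.02 against Dlx5 at 0.99. Dlx5 and Six2 lay above the stromal median in all 17 alternatives. Alx4 and Twist1 fell below it under quantile and loess scaling and without Axin2-/GFP- replicate 1, Alx4 also without Axin2+/GFP+ replicate 3, Twist1 without Axin2-/GFP- replicate 3 and Prrx1 without Axin2+/GFP+ replicate 1. En1, Zic1 and Msx2 lay above it without Axin2-/GFP- replicate 2, En1 also without Axin2+/GFP+ replicate 1 and Zic1 without Axin2+/GFP+ replicate 2. In bulk samples a smaller share of expressing cells and less RNA per cell cannot be told apart, and the part of the blood cell markers in the changes of the 10 factors was not tested. Markers of meningeal fibroblasts, neighbouring cells that also express Zic1, gave 1 gene higher of 7, Crabp2, which binds retinoic acid, with a median log2 change of 0.07. Of 11 macrophage markers 1 was higher (Lyz2, also made by neutrophils) and 1 lower (Cd68), of 8 endothelial markers 0 and 1 (Pecam1), of 6 erythroid markers 1 and 1, of 6 osteoclast markers 0 and 0, and of 2 Schwann cell markers 0 and 0. Over all genes tested, 4.64% were higher and 11.4% lower.

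Over all genes tested, limma put 4.64% higher and 11.4% lower, and before adjustment 16.3% and 17.6%. The other measured genes of the same families gave 0 of 16 higher and 0 lower in limma, and before adjustment 5 and 0. Their median log2 change was 0.39, and all 16 were positive as deposited but 10 of 16 under receptor centring. Closest to the threshold were Six6 at 0.58 (limma adjusted p = 0.0643), an eye and pituitary factor, Dlx2 at 0.59 (adjusted p = 0.0750) and Six3 at 0.53 (adjusted p = 0.0793). Six6 had a low signal, with 28.4% of receptor genes as bright or brighter in Axin2+/GFP+ and 41.7% in Axin2-/GFP- cells. Of 25 other factors of skull mesenchyme 0 were higher and 2 lower, namely Tcf12 and Eya1, a co-activator that binds Six2 and its relatives, and before adjustment 9 and 2. Eya1 had log2 signals of 2.55, 2.13 and 1.71 in Axin2+/GFP+ and 3.98, 3.34 and 4.0 in Axin2-/GFP- samples, a log2 difference of -1.64 (limma adjusted p = 0.00513), whereas Six2 was higher. In the methods' t-test Eya1 did not pass after adjustment (adjusted p = 0.0801). Barx1 at 0.65 (adjusted p = 0.0565) and Foxc2 at 0.47 (adjusted p = 0.0883) did not pass. Sp7, the osteoblast factor Osterix, had a log2 change of 0.26 (adjusted p = 0.346).

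Among 14 signalling genes tied to suture growth, 0 were higher and 1 was lower, beside 4.64% and 11.4% of all genes. The gene called lower was Tgfbr2, the type II TGFβ receptor, at -0.96 on the log2 scale (limma adjusted p = 0.0290). That call ended in the methods' t-test (adjusted p = 0.124) and under quantile (-0.51) and loess scaling (-0.55). It also ended without Axin2-/GFP- replicate 1 (-0.97), 2 (-1.01) or 3 (-0.91). Before adjustment, limma put 3 of the 14 higher and 1 lower, beside 16.3% and 17.6% of all genes. Bmp4, a BMP ligand that induces Msx genes, differed by 0.41 on the log2 scale (adjusted p = 0.119) and Fgfr2, the receptor altered in several craniosynostosis syndromes, by 0.37 (adjusted p = 0.182). Neither passed. Of 6 measured osteoblast genes, which Dlx5 is known to help induce, 3 were higher and 0 lower, and before adjustment 4 and 1. Alpl, the alkaline phosphatase of bone, had log2 signals of 3.37, 3.65 and 3.72 in Axin2+/GFP+ and 4.23, 4.05 and 4.02 in Axin2-/GFP- samples, without overlap, a difference of -0.52 that did not pass (limma adjusted p = 0.0739). In log2 change the 3 were Ibsp at 1.84 (limma adjusted p = 0.00211), Col1a1 at 1.66 (adjusted p = 0.00286) and Dmp1, an osteocyte matrix protein, at 0.88 (adjusted p = 0.0323). Dmp1 had a low signal, with 12.8% of receptor genes as bright or brighter in Axin2+/GFP+ and 34.2% in Axin2-/GFP- cells. None of the 3 passed in the methods' t-test after adjustment. The call of Dmp1 also ended under median centring (0.76), quantile (0.71) and loess scaling (0.62) and receptor centring (0.56). It ended too without Axin2+/GFP+ replicate 1 (0.75) or 3 (0.77) and without Axin2-/GFP- replicate 1 (0.93), 2 (0.81) or 3 (0.89).

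Hox genes, which pattern the trunk and are known to be silent in most of the skull vault, served as homeobox genes of another region. Of 37 measured, 4 were higher and 0 lower, with a median log2 change of 0.32. As a share, 10.8% of Hox genes were higher, compared with 30.0% of the 10 factors and 4.64% of all genes. These lists were not compared at like signal. The median log2 signal in Axin2+/GFP+ and Axin2-/GFP- cells was 2.43 and 2.15 for the Hox genes and 3.54 and 2.95 for the 10 factors. For the other genes of the same families it was 2.84 and 2.46. Hoxc4 and Hoxa13 had the smallest p, with log2 changes of 0.79 and 0.78 (adjusted p = 0.0247 and 0.0244 from limma). In Axin2+/GFP+ and Axin2-/GFP- cells, 2.86% and 8.24% of receptor genes were as bright as Hoxc4 or brighter, and 8.15% and 19.6% as Hoxa13. Both calls ended under quantile and loess scaling, without Axin2+/GFP+ replicate 1 and without Axin2-/GFP- replicate 2 or 3, that of Hoxc4 also without Axin2-/GFP- replicate 1 and that of Hoxa13 also without Axin2+/GFP+ replicate 2. The count of 4 became 1 without Axin2+/GFP+ replicate 1, 2 without replicate 2, 1, 0 and 0 without Axin2-/GFP- replicates 1, 2 and 3, and 2 under median centring, quantile and loess scaling alike. Under receptor centring limma called 0 of the 37 higher, and their median was 0.0050. No test was made of the difference between these lists, and their medians are descriptions.

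**Figure D4:**
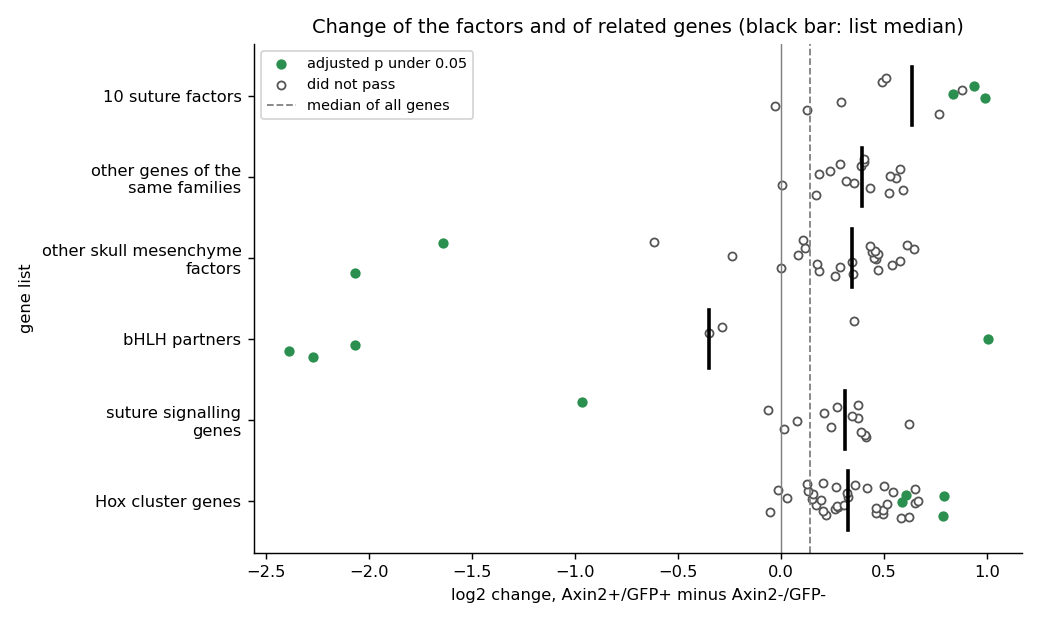
The log2 change between populations (horizontal axis) is plotted for each measured gene of 6 lists (vertical axis), filled green where the adjusted p was under 0.05, a black tick at each list's median and a dashed line at the median of all genes. The 10 suture factors have their median at 0.64, the Hox genes at 0.32, and the 3 E proteins lie below -2.

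The genes whose pattern over the 6 samples lay nearest to that of Dlx5, both the brightest of the 10 and the one with the largest change, were Klf5, Ttc22, Syngr1, Olfr342 and Ncan. Likeness was taken as the root mean square difference of log2 signals centred on each gene's mean, which was 0.076 for Klf5, a zinc finger factor of epithelia, and 0.10 for Ncan, a proteoglycan of nerve tissue. An olfactory receptor stood among them at 0.10.

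Promoter sequence was at hand for 8 of the 10 genes, as the 250 bases before the start in RefSeq (GRCm38.p6). Shown are those of Six2, which was higher, and of Prrx1 and Msx2, the 2 whose window holds TAATTA, the letters that many homeodomain proteins bind. Capitals mark TAATTA and CANNTG, the E-box letters that bHLH dimers bind. Both read the same on either strand.
Six2: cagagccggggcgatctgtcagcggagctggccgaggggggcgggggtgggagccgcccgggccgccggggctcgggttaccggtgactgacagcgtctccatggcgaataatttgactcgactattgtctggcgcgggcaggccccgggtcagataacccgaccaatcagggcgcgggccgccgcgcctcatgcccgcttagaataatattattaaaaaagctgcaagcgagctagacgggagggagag
Prrx1: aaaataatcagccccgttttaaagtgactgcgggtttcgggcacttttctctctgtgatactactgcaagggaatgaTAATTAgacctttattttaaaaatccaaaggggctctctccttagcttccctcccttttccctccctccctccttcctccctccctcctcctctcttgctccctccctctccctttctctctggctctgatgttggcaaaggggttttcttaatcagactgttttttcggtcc
Msx2: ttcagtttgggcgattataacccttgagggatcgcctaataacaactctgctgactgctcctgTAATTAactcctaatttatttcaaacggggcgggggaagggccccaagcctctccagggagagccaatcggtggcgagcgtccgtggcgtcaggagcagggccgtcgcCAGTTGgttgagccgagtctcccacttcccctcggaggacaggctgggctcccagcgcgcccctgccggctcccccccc
They lie at chr17:85688255-85688504, chr1:163313651-163313900 and chr13:53472781-53473030, all on the minus strand. TAATTA was in 2 of the 8 windows and in 4.84% of 32851 windows of the same length, and CANNTG in 4 of the 8 (Msx1, Msx2, Zic1 and En1) and in 66.2%. The window of Prrx1 holds 4 CpG pairs and a GC share of 47.6%, whereas the other 7 hold 16 to 27 CpG pairs, compared with a median of 6 over all windows. These are descriptions of letters, since no binding was measured.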

How the data were processed

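A set of 6 Affymetrix whole-transcript arrays was analysed, 1 per sample. The authors deposited log2 signals, 1 per feature and sample. RMA and R 3.2.1 are named in the submitters' processing notes, whereas the background step and the probe set level were not stated in the sources used here. The log2 scale was inferred from the values. No further scaling was applied, and 0 value columns were left unmatched. Of 35557 features 21789 carry 1 gene symbol in the platform's probe table, and a gene with several was read by its brightest, which left 19938 genes. Groups follow the sample titles. Linear models (lmFit, then eBayes) came from limma 3.58.1 under R 4.3.3, and p-values were adjusted by Benjamini and Hochberg over all genes, without a filter on dim features. The procedure was tested on simulated data. Receptor genes are those whose symbol starts with Olfr, Vmn1r or Vmn2r. The summed linear signal of a list adds 2 to the power of each log2 value.

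The 10 genes and all lists were chosen with earlier results of these data known. Named are the 10 genes, up to 4 genes of smallest p from each list, some of the genes on either side of each factor, and the 5 nearest in pattern to the brightest factor and to the one of largest change. Other genes (Fgfr2, Pdgfra, Axin2, Sp7, Id2, Id3 and Id4) were named after their values were seen, as were the neighbours chosen among 20. Some genes of the lists are not reported here. Alternatives tried were median centring, receptor centring (on the receptor genes' median), quantile and cyclic loess scaling, a trended prior, weights per array, the methods' t-test, a block for the replicate number, a filter on dim genes, the mean of a gene's features, a fit to every feature, and each sample left out in turn. The samples are labelled biological replicates, and their number limits the precision.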

Additional observations from a re-analysis of the deposited data

How the results depend on the processing

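The number of the 10 factors called higher was 3. It was 0 with the methods' t-test after adjustment and with receptor centring, beside 1.06% and 1.05% of all genes. It was 1 after median centring (Dlx5), beside 2.21% of all genes, and 0 to 3 with 1 sample left out. It was 0 without any 1 of the Axin2-/GFP- replicates, 3 without Axin2+/GFP+ replicate 1, 1 without replicate 2 and 2 without replicate 3. Of all genes, 1.44%, 1.3% and 1.2% were higher without Axin2-/GFP- replicates 1, 2 and 3. Without Axin2+/GFP+ replicates 1, 2 and 3 the shares were 4.27%, 3.29% and 3.96%. No factor was called lower in any of the 17 alternatives. Over all genes, 926 higher and 2265 lower became 211 and 518 with the methods' t-test, 441 and 2761 after median centring, 768 and 1266 under quantile scaling, 785 and 1468 under loess and 210 and 3980 under receptor centring. Under the filter on dim genes, which leaves fewer genes to test, 513 were higher. That is 5.15% of the genes tested there, beside 4.64% without the filter. With 1 sample left out the counts ran from 239 to 852 higher and from 1376 to 2082 lower. Of the related lists together, 12 genes higher and 6 lower became 2 and 2 with the methods' t-test and 5 and 9 under receptor centring, and 6 to 11 higher and 4 to 6 lower with 1 sample left out. The cause of these shifts was not tested.

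The log2 change of Twist2 turned to -0.0257 under quantile scaling, -0.0934 under loess and -0.19 under receptor centring, which also turned Msx2 to -0.0276. Msx1 turned to 0.0655 with array weights, 0.0927 under quantile scaling and 0.0617 under loess, and with 1 sample left out it ran from -0.47 (without Axin2+/GFP+ replicate 2) to 0.45 (without replicate 1), with 0.11 without Axin2-/GFP- replicate 1. No other factor changed sign. Over the alternatives the adjusted p ran from 0.00835 to 0.114 for Dlx5, from 0.00734 to 0.144 for Six2 and from 0.0277 to 0.206 for Alx4.

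Whether equal replicate numbers mark paired samples is not stated in the labels, and the correlations were too small to settle it. Over genes, deviations from the group means of same-numbered samples correlated at 0.011 to 0.053, those of other pairs at -0.05 to 0.017, and 5 of the 6 samples correlated best with their own number. With the replicate number as a block, 5 of the 10 factors were higher, beside 3.22% of all genes. Twist1 (0.77, limma adjusted p = 0.0465) and Prrx1 (0.88, limma adjusted p = 0.0328) then passed in addition to Dlx5, Six2 and Alx4.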

Other observations

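The genes that lie next to the 10 factors in the genome were read in the same fit. Of 20 measured neighbours in the RefSeq order, 1 on either side of each factor, limma called 0 higher and 1 lower. Over all genes the shares were 4.64% and 11.4%. A log2 change above 0 was seen in 11 of the 20 and in 61.7% of all genes. The gene that passed was Hdac9, a histone deacetylase beside Twist1, whose gene is known to hold enhancers of Twist1. Hdac9 had a log2 signal of 3.13 ± 0.26 in Axin2+/GFP+ and 4.57 ± 0.38 in Axin2-/GFP- cells (SD, n = 3 each), a log2 change of -1.44 (limma adjusted p = 0.00534), against 0.77 for Twist1. Six3, beside Six2, had a log2 change of 0.53 (adjusted p = 0.0793), Zic4, beside Zic1, of 0.28 (adjusted p = 0.398) and Hdac4, beside Twist2, of 0.65 (adjusted p = 0.116). Several other neighbours had negative changes that did not pass. The largest were those of Insig2, beside En1, at -0.77 (adjusted p = 0.123), Sptlc1, beside Msx2, at -0.73 without overlap (adjusted p = 0.0563) and Stx18, beside Msx1, at -0.56 (adjusted p = 0.235). Cd82, beside Alx4, was also lower without overlap, at -0.25 (adjusted p = 0.297), and the rest were smaller.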
